A study of Homo sapiens with 6 samples.

Results

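Transcripts of the BCL2 family, which sets the threshold for apoptosis at mitochondria, were followed in A549 cells given Comp.2, Comp.4 or vehicle. The 10 genes were chosen by name from the platform's probe table. They comprised the effectors BAX and BAK1, the BH3-only killers BBC3 (PUMA), PMAIP1 (NOXA), BID, BIK and BCL2L11 (BIM), and the guardians BCL2, BCL2L1 (BCL-X) and MCL1. All 10 were measured, each by 1 probe set, out of 22395 genes with a single symbol. A549 is an established human lung adenocarcinoma line. The groups were cells treated with Comp.2 at 2 µM, cells treated with Comp.4 at 2 µM, and cells given vehicle alone, with 2 arrays in each. Treatment started 24 hours after plating and RNA was taken at day 2. The series title describes the compounds as histone acetyltransferase inhibitors directed to DNA sequences, and its design text asks how they altered expression across the genome. The design text groups both compounds as 646-PIP and the treatment protocol writes 664-PIP; the code names Comp.2 and Comp.4 are used here.

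BAX and BAK1 are the proteins that open the mitochondrial outer membrane and release cytochrome c, after which the apoptosome activates caspases. BCL2, BCL-X and MCL1 hold the effectors and their activators in check. BH3-only proteins either bind guardians and free the effectors or activate the effectors themselves. Several of the family genes, BAX, BBC3 and PMAIP1 among them, are textbook targets of p53, and BCL2L11 is a textbook target of FOXO transcription factors. Much of the family's control lies after transcription: BID is activated by cleavage, MCL1 protein turns over fast, and BCL2L1 and MCL1 give splice forms of opposite action. The array reads transcript level per gene, so none of those steps was measured, and splice forms were not told apart.

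The values are log2 levels made by the authors with RMA, and a difference of 1 is a 2-fold change. Differences were tested with limma over all 22395 genes, with a threshold of 0.05 on the adjusted p. Nothing in the labels ties the replicates to different cultures, so a p reflects how far apart these samples lay, and that spread could be technical. All 8 markers of the lung epithelial line, such as CDH1 (mean 10.23) and NQO1 (11.70), were brighter than the median gene (5.36). The defining leukocyte gene PTPRC (2.70) and the fibroblast gene DCN (2.78) were among the dimmest genes. Of the markers of leukocytes, fibroblasts and endothelium, 5, 5 and 4 were measured, 2, 1 and 0 of them brighter than the median gene, and none passed the threshold in any comparison.

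The upstream windows of BAX and BCL2L11 are shown because these members had the largest differences. Sequences are those of RefSeq on GRCh38.p14, taken from a promoter table in which 8 of the 10 members were matched, and cover the 250 bases before the annotated start. The BAX window lies at chr19:48954625-48954874 and the BCL2L11 window at chr2:111120664-111120913, both on the plus strand. Capitals mark matches, on either strand, to CACGTG (an E-box), GTAAACA (a FOXO core), GGGCGG (a GC box) and CCAAT, and none of these matches overlapped.
BAX: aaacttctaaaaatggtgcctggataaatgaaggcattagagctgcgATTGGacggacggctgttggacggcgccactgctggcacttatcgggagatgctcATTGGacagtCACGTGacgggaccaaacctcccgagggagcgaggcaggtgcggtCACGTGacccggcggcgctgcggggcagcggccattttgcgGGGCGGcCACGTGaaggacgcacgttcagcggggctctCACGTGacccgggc
BCL2L11: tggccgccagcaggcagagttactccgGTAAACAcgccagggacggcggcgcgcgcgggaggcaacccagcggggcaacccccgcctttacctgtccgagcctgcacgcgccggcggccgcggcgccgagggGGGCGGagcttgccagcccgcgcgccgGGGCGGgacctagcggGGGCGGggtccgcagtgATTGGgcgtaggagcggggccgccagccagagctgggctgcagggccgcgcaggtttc

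The BAX window held 4 E-boxes, 2 CCAAT boxes and 1 GC box. The E-box, searched for after the BAX window had been read, occurred in 6.34% of 35116 promoter windows of the same length. Windows of BBC3 and BID held E-boxes as well, and those of the other matched members held none. The BCL2L11 window held a FOXO core that starts 223 bases upstream, 3 GC boxes and 1 CCAAT box. FOXO cores occurred in 2.98% of all windows, GC boxes in 42.64% and CCAAT boxes in 32.01%. The p53 decamer, the unit of the p53 response element, was found in 5.57% of all windows. It occurred in the window of BAK1 and in no window of the other matched members. BIK and MCL1 had no window in the promoter table and were not searched. These are matches of letters within 250 bases and were not measured as binding sites.

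No member passed the threshold in any of the 3 comparisons, and the differences that came nearest were those of 2 killers. BAX was 1.74-fold higher under Comp.2 than under vehicle, and BCL2L11 was 1.53-fold lower under Comp.4 than under vehicle. The guardians stayed within 0.16 log2 units of vehicle under either compound. Without adjustment, 3 members had a p under 0.05 under Comp.2 (BAX and BIK higher, BCL2L11 lower), against 11.2% of all genes (6.23% higher and 4.94% lower). Under Comp.4 there were 4 (BID, BIK and PMAIP1 higher, BCL2L11 lower), against 16.5% of all genes (8.64% and 7.88%). Between the compounds there were 4 (BID and PMAIP1 higher under Comp.4, BAX and BCL2L11 lower), against 15% of all genes (7.52% and 7.45%). After adjustment 0.196%, 0.147% and 0.371% of all genes passed in the same 3 comparisons. In each comparison 5 of the 10 members had arrays that did not overlap between groups, as did 43.7% of all genes for Comp.2, 49.4% for Comp.4 and 45.3% between the compounds. The unadjusted count for Comp.4 was lower without vehicle replicate 1 and without Comp.4 replicate 2. The count for Comp.2 was lower without vehicle replicate 1 and without Comp.2 replicate 1. The count between the compounds was lower without any 1 array of either compound. Counts were higher for Comp.2 without Comp.2 replicate 2 and for Comp.4 without vehicle replicate 2. In each of these fits, which leave 1 array in a group, the share of all genes was lower.

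**Figure D1:**
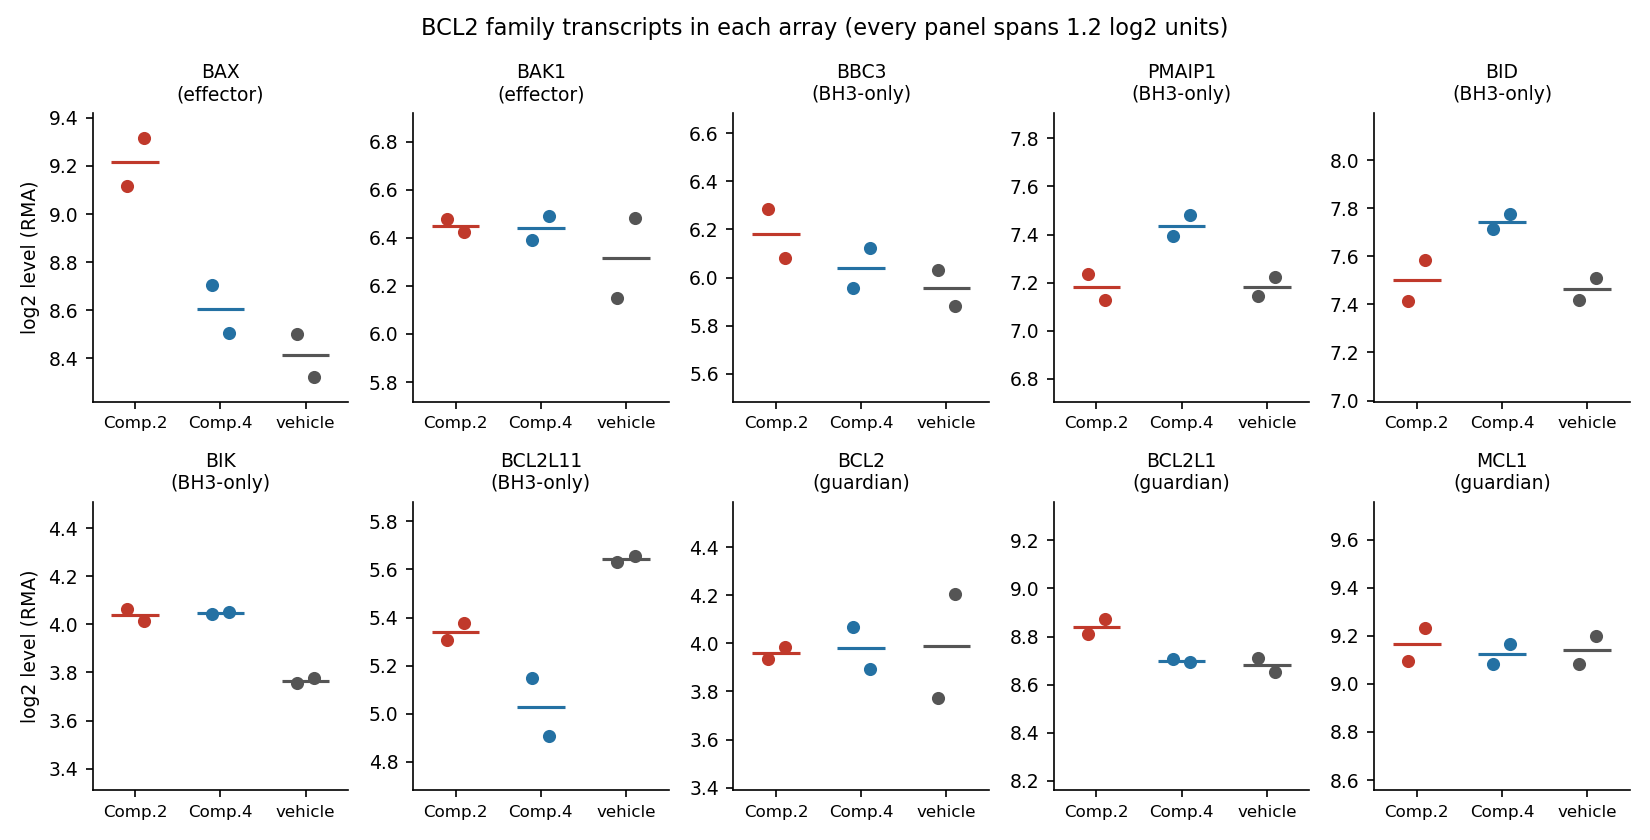
Log2 level (RMA, vertical axis) of each BCL2 family member in the 2 arrays of Comp.2, Comp.4 and vehicle; points are arrays, bars are group means, and every panel spans the same range. BAX stands out as high under Comp.2 (9.12 and 9.32), BCL2L11 is lowest under Comp.4 (5.15 and 4.91), and the MCL1 arrays of all 3 groups overlap.

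Among the effectors, BAX had 9.12 and 9.32 log2 units under Comp.2 and 8.71 and 8.50 under Comp.4, against 8.50 and 8.32 under vehicle. Both Comp.2 arrays lay above all 4 others, while the lower Comp.4 array and the higher vehicle array were equal to the second decimal. The Comp.2 difference was 0.80 (SE 0.11, 95% interval 0.53 to 1.07), which is 1.74-fold (1.45 to 2.10), and its limma adjusted p was 0.0761. By p it ranked 70 among the 22395 genes and by size of change 47. Under Comp.4 BAX differed from vehicle by 0.19 (-0.08 to 0.46, adjusted p = 0.455), and by 0.09 to 0.29 with 1 array left out.

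At their common dose and day the compounds differed in BAX by -0.61 (Comp.4 minus Comp.2, 95% interval -0.88 to -0.34), or 1.53-fold (1.27 to 1.84) lower under Comp.4. The limma adjusted p of that difference was 0.0989. Whether BAX passed turned on the setting. With an intensity trend in the variance its adjusted p was 0.00131 under Comp.2 and 0.00421 between the compounds. Among the brighter genes alone these were 0.0142 and 0.0212, and among protein-coding genes alone the Comp.2 value was 0.045. Over 12 alternatives the adjusted p ran from 0.00131 to 0.444 for Comp.2 and from 0.00421 to 0.254 between the compounds.

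BAK1, the other effector, had 6.48 and 6.42 under Comp.2 and 6.39 and 6.49 under Comp.4, against 6.15 and 6.48 under vehicle. The vehicle arrays lay farther apart than those of either compound and spanned most of the treated values. The differences from vehicle were 0.14 (95% interval -0.14 to 0.41) under Comp.2 and 0.12 (-0.15 to 0.40) under Comp.4. Between the compounds BAK1 differed by -0.01 (-0.29 to 0.27).

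**Figure D2:**
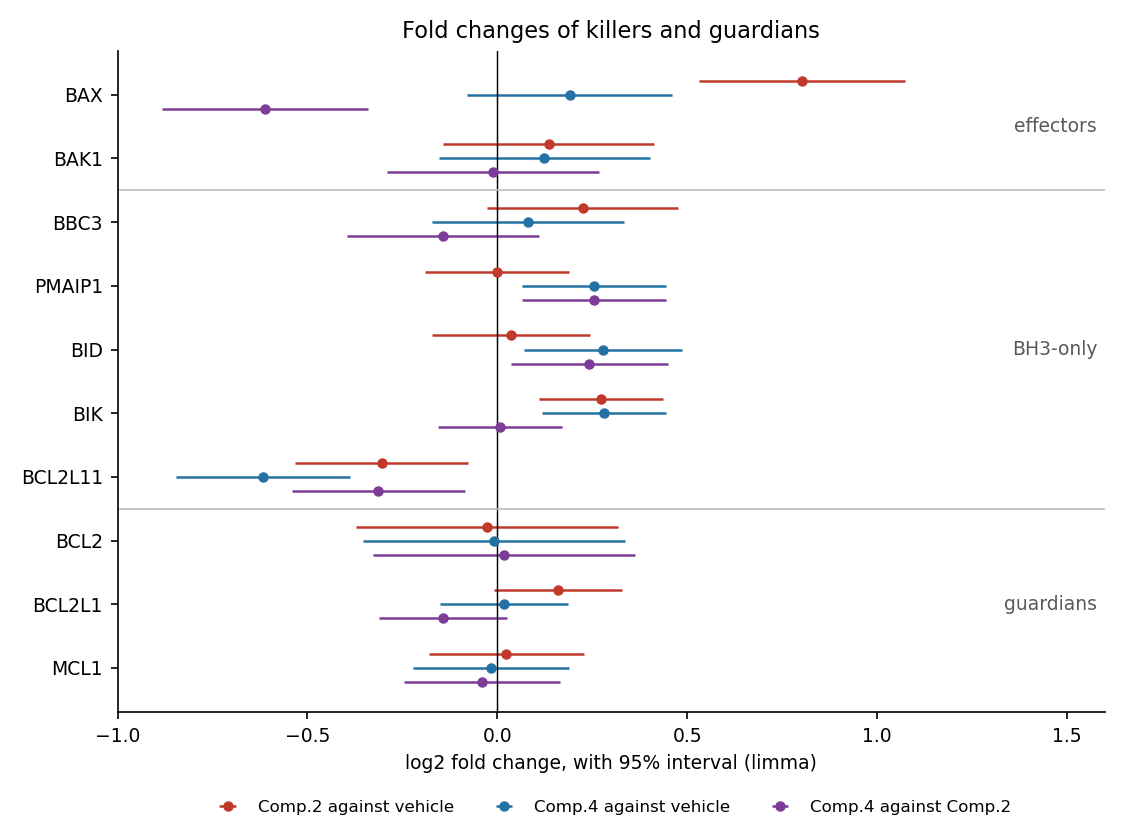
Log2 fold change of each member (points) with its 95% interval from limma (bars) for each compound against vehicle and for Comp.4 against Comp.2; grey lines separate effectors, BH3-only genes and guardians. The BAX interval for Comp.2 (0.53 to 1.07) and the BCL2L11 interval for Comp.4 (-0.85 to -0.39) lie farthest from 0, and every guardian interval includes 0.

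BCL2L11 encodes BIM, a BH3-only protein that binds all guardians and can activate the effectors. Its levels were 5.31 and 5.38 under Comp.2 and 5.15 and 4.91 under Comp.4, against 5.63 and 5.66 under vehicle. No array of one group overlapped with another group, and the order was Comp.4, Comp.2 and vehicle from low to high. The Comp.4 difference from vehicle was -0.62 (SE 0.10, 95% interval -0.85 to -0.39), or 1.53-fold (1.31 to 1.80) lower, with a limma adjusted p of 0.0756. It ranked 122 of 22395 by p and 151 by size. The adjusted p was 0.013 with an intensity trend, and ran up to 0.345 over 11 alternatives. Under Comp.2 the difference from vehicle was -0.30 (-0.53 to -0.08, adjusted p = 0.344). Between the compounds it was -0.31 (-0.54 to -0.08, adjusted p = 0.224). The probe set had a mean of 5.34, close to that of the median gene. RMA values can understate fold changes of dim genes, which was not measured here.

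BIK, a BH3-only gene whose product resides at the endoplasmic reticulum, was higher than vehicle by nearly equal amounts under each compound. It had 4.06 and 4.01 under Comp.2 and 4.04 and 4.05 under Comp.4, against 3.76 and 3.77 under vehicle. All 4 treated arrays lay above both vehicle arrays, and the treated groups overlapped. The differences from vehicle were 0.27 (95% interval 0.11 to 0.44, adjusted p = 0.253) for Comp.2 and 0.28 (0.12 to 0.44, adjusted p = 0.138) for Comp.4, and these comparisons share the vehicle arrays. Between the compounds BIK differed by 0.01 (-0.16 to 0.17). The signal was dim: 22.3% of genes had a lower mean, and no detection calls were used here.

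PMAIP1 and BID were nearer to vehicle under Comp.2 and higher under Comp.4. PMAIP1, whose product NOXA binds MCL1, had 7.23 and 7.13 under Comp.2 and 7.39 and 7.48 under Comp.4, against 7.14 and 7.22 under vehicle. Both Comp.4 arrays lay above the other 4, and the Comp.2 and vehicle arrays overlapped. Its difference under Comp.4 was 0.26 from vehicle (0.07 to 0.44, adjusted p = 0.1996) and 0.26 from Comp.2 (0.07 to 0.45, adjusted p = 0.229). Under Comp.2 the difference from vehicle was below 0.01 in size (interval -0.19 to 0.19).

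BID, whose cleaved form carries the death receptor signal to mitochondria, had 7.42 and 7.59 under Comp.2 and 7.71 and 7.78 under Comp.4, against 7.42 and 7.51 under vehicle. Both Comp.4 arrays again lay above the other 4. The Comp.4 difference was 0.28 from vehicle (0.07 to 0.49, adjusted p = 0.1998) and 0.24 from Comp.2 (0.04 to 0.45, adjusted p = 0.274). Under Comp.2 BID differed from vehicle by 0.04 (-0.17 to 0.24).

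BBC3, which encodes the p53-induced killer PUMA, had 6.28 and 6.08 under Comp.2 and 5.96 and 6.12 under Comp.4, against 6.03 and 5.88 under vehicle. The Comp.2 arrays lay just above the vehicle arrays, and the Comp.4 arrays overlapped with both groups. The differences from vehicle were 0.22 (-0.03 to 0.48, adjusted p = 0.489) for Comp.2 and 0.08 (-0.17 to 0.33) for Comp.4. Between the compounds the difference was -0.14 (-0.40 to 0.11).

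**Figure D3:**
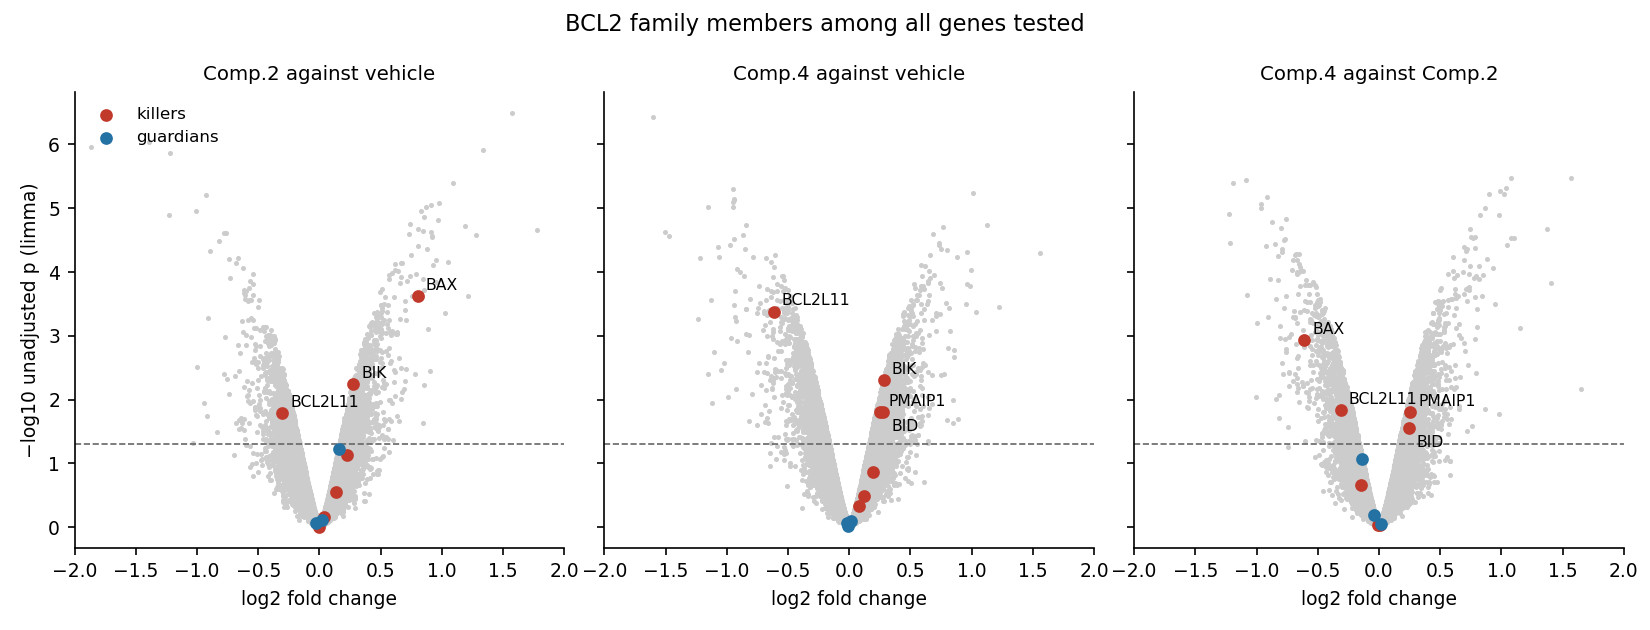
Log2 fold change (horizontal axis) against −log10 of the unadjusted limma p (vertical axis) for all 22395 genes (grey), the 7 killers (red) and the 3 guardians (blue) in each comparison; the dashed line is an unadjusted p of 0.05, and members above it are named. All named members are killers, and many grey genes lie as far out as they do.

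The guardians showed small differences. MCL1, which encodes a short-lived guardian, had 9.10 and 9.23 under Comp.2 and 9.08 and 9.17 under Comp.4, against 9.08 and 9.20 under vehicle. All 3 groups overlapped. The intervals of its difference from vehicle were -0.18 to 0.23 for Comp.2 and -0.22 to 0.19 for Comp.4, so the intervals reach at most a 1.17-fold change in either direction.

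BCL2L1 had 8.81 and 8.87 under Comp.2 and 8.71 and 8.69 under Comp.4, against 8.71 and 8.65 under vehicle. Both Comp.2 arrays were the highest of the 6, and the Comp.4 and vehicle arrays overlapped. The Comp.2 difference from vehicle was 0.16 (-0.01 to 0.33, adjusted p = 0.468) and the Comp.4 difference 0.02 (-0.15 to 0.19). Between the compounds the difference was -0.14 (-0.31 to 0.03, adjusted p = 0.41).

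BCL2, the founding guardian, was dim in these cells, at 3.94 and 3.99 under Comp.2 and 4.07 and 3.89 under Comp.4, against 3.77 and 4.21 under vehicle. The vehicle arrays enclosed all treated arrays. The differences from vehicle were -0.03 (-0.37 to 0.32) under Comp.2 and -0.01 (-0.35 to 0.34) under Comp.4, the widest intervals of any member.

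Killers and guardians were then set beside each other. Under Comp.2 the 7 killers had a median log2 difference of 0.14 from vehicle, 5 above 0 and 2 below, and the 3 guardians a median of 0.02. Under Comp.4 the killers had a median of 0.19, 6 above 0 and 1 below, and the guardians -0.01. The medians over all genes were 0.00 and 0.02. The killers did not share 1 direction: under Comp.2 they ran from -0.30 (BCL2L11) to 0.80 (BAX), and under Comp.4 from -0.62 (BCL2L11) to 0.28 (BIK).

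The same contrast can be read within each array as the change of a killer minus that of a guardian, relative to the vehicle mean. BAX minus BCL2L1 was 0.57 and 0.71 under Comp.2 and 0.27 and 0.08 under Comp.4, against 0.06 and -0.06 under vehicle. BAX minus MCL1 was 0.75 and 0.81 under Comp.2 and 0.35 and 0.07 under Comp.4, against 0.15 and -0.15 under vehicle. For both ratios the Comp.2 arrays lay above all others, and the lower Comp.4 array lay within or near the vehicle range. BCL2L11 minus MCL1 went the other way, at -0.29 and -0.36 under Comp.2 and -0.44 and -0.76 under Comp.4, against 0.05 and -0.05 under vehicle. PMAIP1 minus MCL1 was 0.10 and -0.15 under Comp.2 and 0.27 and 0.27 under Comp.4, against 0.02 and -0.02 under vehicle. Averaged over the members, killers minus guardians was 0.15 and 0.08 under Comp.2 and 0.07 and 0.10 under Comp.4, against 0.07 and -0.07 under vehicle. The averages hid opposite values of BAX and BCL2L11. All 4 treated arrays lay above both vehicle arrays, the closest by less than 0.01. These ratios are descriptions of 2 arrays a group and were not tested.

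The rest of the pathway was taken from lists of 51 other genes, of which 45 were measured. None of the 45 passed the threshold in any comparison. Without adjustment 3 were higher and 4 lower under Comp.2, 3 and 6 under Comp.4, and 5 and 3 under Comp.4 against Comp.2. Over all genes the shares in either direction were 11.2%, 16.5% and 15%. Their median differences were -0.01, 0.01 and -0.02.

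Of the 3 other genes listed as anti-apoptotic and measured, BCL2A1, an NF-κB-induced family member, had the largest difference. It averaged 5.59 ± 0.02 under Comp.2 and 5.40 ± 0.04 under Comp.4, against 5.11 ± 0.09 under vehicle (SD, n = 2 arrays each). The differences from vehicle were 0.49 (0.30 to 0.67, adjusted p = 0.111) and 0.30 (0.11 to 0.48, adjusted p = 0.151). BCL2L10 had 0.25 under Comp.2 (0.02 to 0.47) at a dim signal.

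Of the 7 other genes listed as pro-apoptotic and measured, BAD, which encodes a BH3-only protein held inactive by phosphorylation, was higher by 0.31 (0.07 to 0.55, adjusted p = 0.358) under Comp.2 and by 0.33 (0.09 to 0.57, adjusted p = 0.195) under Comp.4. HRK, a BH3-only gene known from neurons, averaged 5.31 ± 0.23 under Comp.4, against 4.69 ± 0.15 under Comp.2 and 4.87 ± 0.20 under vehicle. It was 0.62 higher under Comp.4 than under Comp.2 (0.27 to 0.97, adjusted p = 0.1498).

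Downstream of the membrane step, no apoptosome or caspase gene of 10 measured had an unadjusted p under 0.05 under Comp.2, where 11.2% of all genes did. Under Comp.4 there was 1 (CASP2), against 16.5% of all genes. Between the compounds there were 2 (DIABLO higher and CASP2 lower under Comp.4), against 15% of all genes. DIABLO, whose product relieves the block on caspases, was 0.21 higher under Comp.4 than under Comp.2 (0.001 to 0.43, adjusted p = 0.332). APAF1, the scaffold of the apoptosome, had 0.09 (-0.15 to 0.33) under Comp.2 and -0.12 (-0.36 to 0.13) under Comp.4. CASP2, a caspase gene, differed from vehicle by -0.29 under Comp.4 (-0.48 to -0.11, adjusted p = 0.156). The 5 caspase inhibitor genes measured ran from -0.11 to 0.17 under Comp.2 and from -0.19 to 0.08 under Comp.4. BIRC6 had the lowest Comp.4 value, and XIAP had 0.04 under Comp.2 and 0.02 under Comp.4. VDAC2, the channel protein that recruits BAK1 to mitochondria, had -0.01 under Comp.2 and 0.02 under Comp.4. No gene of its list of 6 had an unadjusted p under 0.05 against vehicle, against 11.2% of all genes for Comp.2 and 16.5% for Comp.4.

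Of 5 genes of MCL1 turnover, HUWE1, a ubiquitin ligase of MCL1, averaged 9.54 ± 0.01 under Comp.4, against 9.80 ± 0.01 under Comp.2 and 9.86 ± 0.06 under vehicle. Its Comp.4 difference from vehicle was -0.32 (-0.49 to -0.15, adjusted p = 0.121). USP9X, a deubiquitinase that stabilises MCL1, had -0.26 (-0.43 to -0.09, adjusted p = 0.165), so genes of opposite action on MCL1 protein had differences of the same sign.

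Among 9 transcription factors of family genes, 4 were lower under Comp.2 without adjustment (ATF4, MYC, FOXO3 and E2F1), against 4.94% of all genes. FOXO3, a FOXO factor, averaged 5.37 ± 0.01 under Comp.2 and 5.55 ± 0.0001 under Comp.4, against 5.64 ± 0.04 under vehicle. Its difference from vehicle was -0.26 (-0.42 to -0.10) under Comp.2 and -0.08 (-0.25 to 0.08) under Comp.4. MYC had -0.36 (-0.56 to -0.16) and -0.30 (-0.49 to -0.10). ATF4, the factor of the integrated stress response, was 0.53 (0.34 to 0.71, adjusted p = 0.0593) higher under Comp.4 than under Comp.2. Its difference from vehicle was -0.42 (-0.60 to -0.24, limma adjusted p = 0.135) under Comp.2 and 0.10 (-0.08 to 0.29) under Comp.4.

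**Figure D4:**
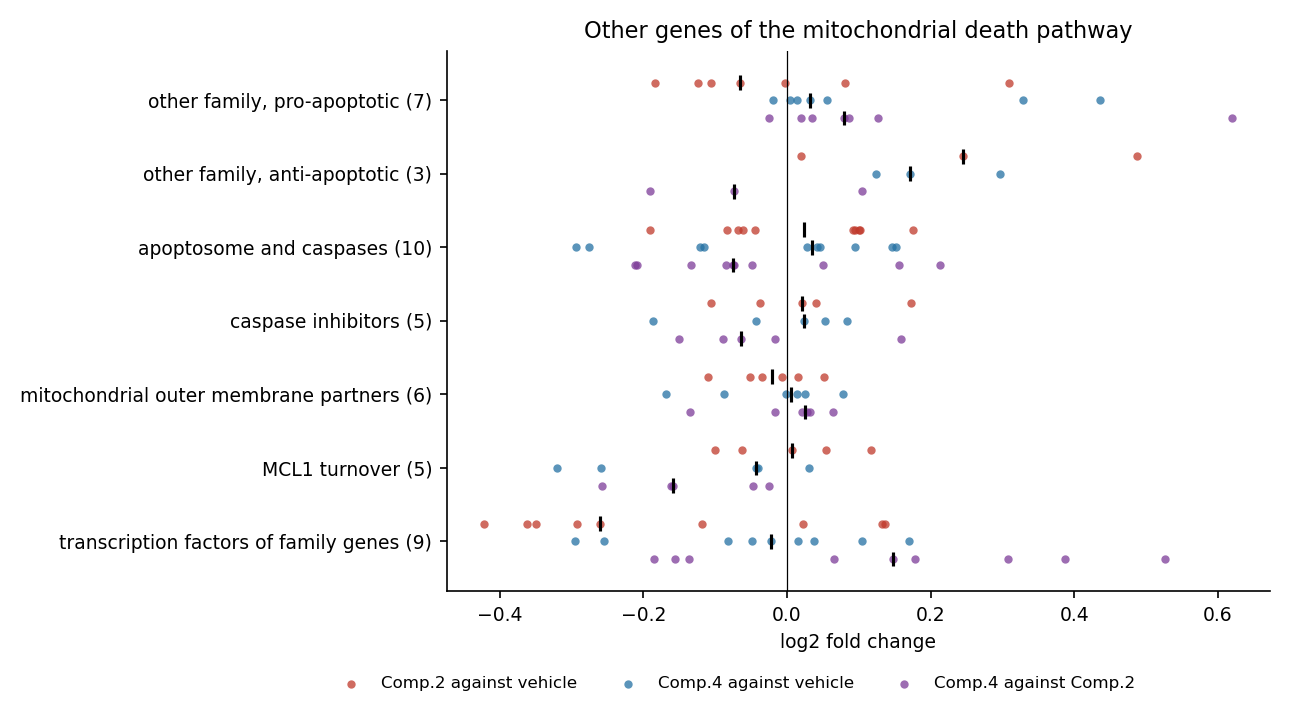
Log2 fold changes of the 45 other genes by list (rows, number measured in brackets) for the 3 comparisons (colours); points are genes and black ticks are medians. The points farthest above 0 are HRK (0.62) and ATF4 (0.53), both between the compounds, and BCL2A1 (0.49) under Comp.2.

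The genes whose profile over the 6 arrays was most like that of BAX, among 733 brighter protein-coding genes that varied at least 0.5 times as much, were NEFL (Pearson's r 0.98), TNFRSF10B (0.98) and IER5 (0.98). NEFL encodes a neurofilament subunit and TNFRSF10B a death receptor for TRAIL. Of those 733 genes, 19 had r above 0.95. TNFRSF10B averaged 8.16 under Comp.2 and 7.87 under Comp.4, against 7.69 under vehicle. For BCL2L11 the most alike of 2272 genes were SNAI1 (r 0.995), PRKAA1 (0.99) and SFXN5 (0.99), and 50 had r above 0.95. SNAI1, a transcription factor gene of epithelial plasticity, averaged 5.87 under Comp.2 and 5.52 under Comp.4, against 6.19 under vehicle. These r values describe 6 arrays in 3 groups that share preparation and normalization.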

How the data were processed

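Transcript levels of 6 A549 samples were read on Affymetrix arrays, 1 array a sample. The submitters' processing notes name RMA, Transcriptome Analysis Console 2.0 and Affymetrix Expression Console 1.3.1; RMA, run by the authors, corrects background, sets arrays to 1 distribution and summarises probes, and gives the deposited log2 values. Array medians lay between 4.55 and 4.56, so a global shift would be hidden. Arrays give no read depth; their number limits the precision.

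Of 53617 probe sets, 23871 had 1 gene symbol, 1842 several and 27904 none here. Symbols were updated through Entrez numbers of a RefSeq table (GRCh38.p14; 22569 matched, 90 symbols changed), and the brightest probe set stood for each of 22395 genes. limma 3.58.1 in R 4.3.3 fitted a mean per group to all 6 arrays (3 residual and 3.71 prior degrees of freedom), two-sided, with Benjamini-Hochberg adjustment over all genes. Intervals are 95% intervals from the moderated variance. With 2 arrays a group the smallest two-sided permutation p is 0.333, and no such test was made. The code was tested on simulated data. Figures were drawn with matplotlib.

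Members, lists and tests were chosen with earlier results of these data known. All members are named; of the other lists, those past the threshold or with the smallest p (up to 3), and further examples chosen after their values were seen. Genes most like a member were the 3 with the highest r for the 2 members with the largest changes. Replicate numbers did not pair the samples: the correlation of same-numbered deviations between groups lay between -0.04 and 0.03. Alternatives were a replicate block, each array left out, an intensity trend, brighter genes (above the median gene), the mean of probe sets, protein-coding genes, and fits of both compared groups alone.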

Additional observations from a re-analysis of the deposited data

How the results depend on the processing

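No member passed the threshold with the replicate block, where 0.067%, 0.0179% and 0% of all genes passed for Comp.2, Comp.4 and between the compounds. None passed with the mean of probe sets (0.188%, 0.129% and 0.375% of all genes). The same held in fits of both compared groups alone (0.0625%, 0% and 0%). Fits in which so few genes pass say little about the members. With the replicate block the unadjusted counts were 3 for Comp.2, 4 for Comp.4 and 4 between the compounds, equal to those without it. The unadjusted shares of all genes with the block were 10.6%, 15.5% and 14%. With an intensity trend 1 member passed in each comparison (BAX, BCL2L11 and BAX), as did 1.73%, 5.47% and 4.8% of all genes. Among brighter genes 1 passed under Comp.2 and 1 between the compounds (BAX in both), as did 2.08% and 6.39% of those genes. Among protein-coding genes 1 passed under Comp.2 (BAX), as did 0.364% of them. The brighter-gene fit tested 7 members, without BIK, BCL2L11 and BCL2. It gave an unadjusted Comp.4 count of 2, against 27.8% of the 11197 brighter genes. Fewer genes are tested in the brighter and protein-coding fits. Why the intensity trend moved the calls was not tested. Where leaving out 1 array changed a member count, up or down, the share of all genes was lower than with all arrays. Those fits leave 1 array in a group, so their counts say little about the members. Without any 1 array the unadjusted counts were 2 to 4 for Comp.2, 2 to 5 for Comp.4 and 1 to 4 between the compounds.

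The 171 log2 differences under the other alternatives kept their sign by construction, because those settings leave the group means of each member unchanged. Of 180 with 1 array left out, some could not move, because the array was of the group not compared. In total 21 turned sign, all in members whose difference with all arrays was at most 0.14 in size. Against vehicle under Comp.2 these ranges were -0.031 to 0.30 for BAK1, -0.053 to 0.052 for PMAIP1, -0.049 to 0.12 for BID, -0.25 to 0.19 for BCL2 and -0.044 to 0.093 for MCL1. Under Comp.4 they were -0.042 to 0.29 for BAK1, -0.23 to 0.21 for BCL2, -0.012 to 0.047 for BCL2L1 and -0.075 to 0.042 for MCL1. Between the compounds they were -0.061 to 0.039 for BAK1, -0.017 to 0.032 for BIK, -0.068 to 0.10 for BCL2 and -0.11 to 0.028 for MCL1. BAX under Comp.2 stayed between 0.70 and 0.90, and BCL2L11 under Comp.4 between -0.74 and -0.50. Other values kept their sign but moved by over 1.5 times in size. BAX under Comp.4 ran from 0.090 to 0.29, and BBC3 from 0.12 to 0.33 under Comp.2 and from 1e-04 to 0.16 under Comp.4. Between the compounds BBC3 ran from -0.25 to -0.041, BID from 0.16 to 0.33 and BCL2L11 from -0.43 to -0.19. Dim probe sets (BIK, BCL2) limit what small differences can show.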
